A study of Drosophila melanogaster with 18 samples.

Results

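Ovary gene expression changed in ada2b germline clones and in ovaries labelled Ataxin-7. The results here are about the gene-by-gene difference between these changes. For each gene the difference was (ada2b_1764 minus FRT_1764) minus (ataxin7_1799 minus FRT_1799), on the scale of log2(RPKM + 1), where RPKM is a read count scaled to the length of the gene and the depth of the library. A value above 0 means that the gene stood higher in the ada2b libraries, relative to their control, than in the libraries labelled Ataxin-7 relative to theirs. The genes taken were those with a mean RPKM of at least 1 over the 12 libraries of these 4 groups, which were 7601 of the 15682 genes in the table.

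SAGA is a transcription coactivator with several modules. Its acetyltransferase module holds the enzyme Gcn5 with Ada2b, Ada3 and Sgf29 and acetylates histone H3, and its deubiquitinase module holds the enzyme Non-stop with Sgf11 and E(y)2, is anchored to the complex by Ataxin-7, and removes ubiquitin from histone H2B. Ada2b and Gcn5 also occur together outside SAGA, in the ADA and CHAT complexes. In the fly ovary, the germline nurse cells make the RNAs that the oocyte stores, and the somatic follicle cells around them make yolk and eggshell proteins.

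Poly(A) RNA of whole Drosophila melanogaster ovaries was sequenced in 18 libraries from 3 experiments, of which 1764 and 1799 enter the difference. Experiment 1764 held 3 libraries of genotype ada2b and 3 of its FRT control, experiment 1799 held 3 libraries of genotype ataxin7 and 3 of its own FRT control, and each FRT control carried the genotype label wt. All groups were treated alike: flies grew at 25 °C, larvae received heat shocks of 2 h at 37 °C on 2 successive days to induce clones, and yeast was given over the last 2 to 3 days before the ovaries were taken. Each genotype had biological triplicates, and the 6 libraries of experiment 1846, nonstop against its FRT control, served only as a further readout. The mutant alleles, the chromosome arms with the FRT sites and the share of egg chambers that were clones are not given in the sources used here. In germline clones of this kind the germ cells of an egg chamber are mutant while the somatic cells of the same ovary need not be, so that a whole-ovary value mixes both. In such bulk samples, fewer cells of a type and less RNA per cell cannot be told apart.

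The shallowest of the 12 libraries, ada2b replicate 1, held 22608227 reads on genes, and for a gene 1000 bp long an RPKM of 1 was worth 20.4 reads there and more in the others. The ada2b libraries were less alike than those of the other groups. Replicate 1 differed from the other ada2b replicates by 252 and 365 in chi-square per degree of freedom, against 8.84 to 47.1 for the other pairs of replicates. Mitochondrial genes took 26% of its reads, against 8.92% and 12.4% in the other ada2b libraries and 4.30% to 8.79% in the remaining 9. The spermatheca marker Send1 stood at 7.34 RPKM in replicate 1 and at no more than 0.055 in the other 11 libraries. Replicates of a group had Pearson correlations of at least 0.968 on the log2 scale. The deposited values were normalized within each experiment, so levels of the experiments are given side by side and only changes against the own control were tested against each other. Results that rest on ada2b replicate 1 are given with and without it.

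The mutated genes themselves came first. Ada2b (FBgn0037555, arm 3R) stood at 6.17, 7.80 and 8.75 RPKM in the ada2b libraries and at 45.4, 44.4 and 46.5 in FRT_1764. It stood at 61.1, 60.4 and 57.4 in the libraries labelled Ataxin-7 and at 53.9, 53.8 and 56.0 in FRT_1799, so that the ada2b values lay below all others, and the difference between the changes was -2.57 (95% interval -2.85 to -2.30, adjusted p = 9.79e-08, limma). Ada2b overlaps PolI on the opposite strand, and whether the counting used strand is not given in the sources used here. Atxn7 (FBgn0031420, arm 2L), which encodes Ataxin-7, stood at 5.24, 5.38 and 5.39 RPKM in the ada2b libraries and at 9.57, 9.23 and 9.68 in FRT_1764. In experiment 1799 it was at 12.5, 12.5 and 12.4 in the libraries labelled Ataxin-7 and at 7.59, 7.92 and 7.65 in their FRT control. The level of Atxn7 was thus higher, not lower, in the libraries that carry its genotype label, and directions drawn from these libraries rest on their labels. Its changes were called in opposite directions, -0.73 and 0.63, with a difference of -1.36 (-1.49 to -1.23, adjusted p = 4.55e-08, limma). The gene not, which encodes Non-stop, had a change of -0.33 in ada2b and of 0.26 in Ataxin-7, a difference of -0.59 (-0.79 to -0.39, adjusted p = 0.000191, limma).

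The changes differed for most genes. A gene was called where the limma contrast of the 12 libraries had a Benjamini-Hochberg adjusted p under 0.05 over all tested genes, and 5209 of 7601 genes (68.5%) were called, 1998 above 0 (26.3%) and 3211 below 0 (42.2%). With a difference of at least 2-fold, 1399 genes (18.4%) were called, 592 above 0 (7.79%) and 807 below 0 (10.6%). The values of the 3 mutant libraries, each less the mean of its own control, did not overlap between the experiments for 5905 genes (77.7%). The median difference over all tested genes was -0.13, made of a median ada2b change of -0.14 and a median Ataxin-7 change of -0.013, and its median standard error was 0.113.

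The direction of these calls depended on the scaling of the libraries. Above 0 lay 38.4% of the calls with the values as deposited, 47.9% after quantile normalization and 58.0% after each library was scaled to a common median. These scalings moved the median difference to -0.019 and 0.119, kept 86.9% and 80.0% of the calls, and turned the sign of 33 and 153 called genes. Genes and lists below are therefore read against the median of -0.13, and where a scaling changes the count of a list, the count is given.

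The ada2b change was the wider of the pair. It was called for 5743 genes (75.6%), 2160 higher (28.4%) and 3583 lower (47.1%), and the Ataxin-7 change for 1913 (25.2%), 856 higher (11.3%) and 1057 lower (13.9%). Over the tested genes the ada2b changes had an SD of 0.861 and the Ataxin-7 changes an SD of 0.347, and 1376 against 141 genes changed by at least 2-fold in value. Of the 5209 called differences, 4497 (86.3%) belonged to genes whose ada2b change was the larger in size and 712 to genes whose Ataxin-7 change was.

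Called genes fell into patterns by which change was itself called. For 3637 genes (69.8%) only the ada2b change was called, with 1290 rises and 2347 falls. For 684 (13.1%) both changes were called in opposite directions, 294 of them up in ada2b and down in Ataxin-7 and 390 the reverse. For 407 both were called in the same direction, 361 with the larger change in ada2b. For 343 (6.58%) only the Ataxin-7 change was called, with 153 rises and 190 falls, and for 138 neither was. These counts depend on the shared spread, to which the ada2b libraries add most. Without ada2b replicate 1 the Ataxin-7 change was called for 3079 genes and opposite changes for 1141.

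**Figure D1:**
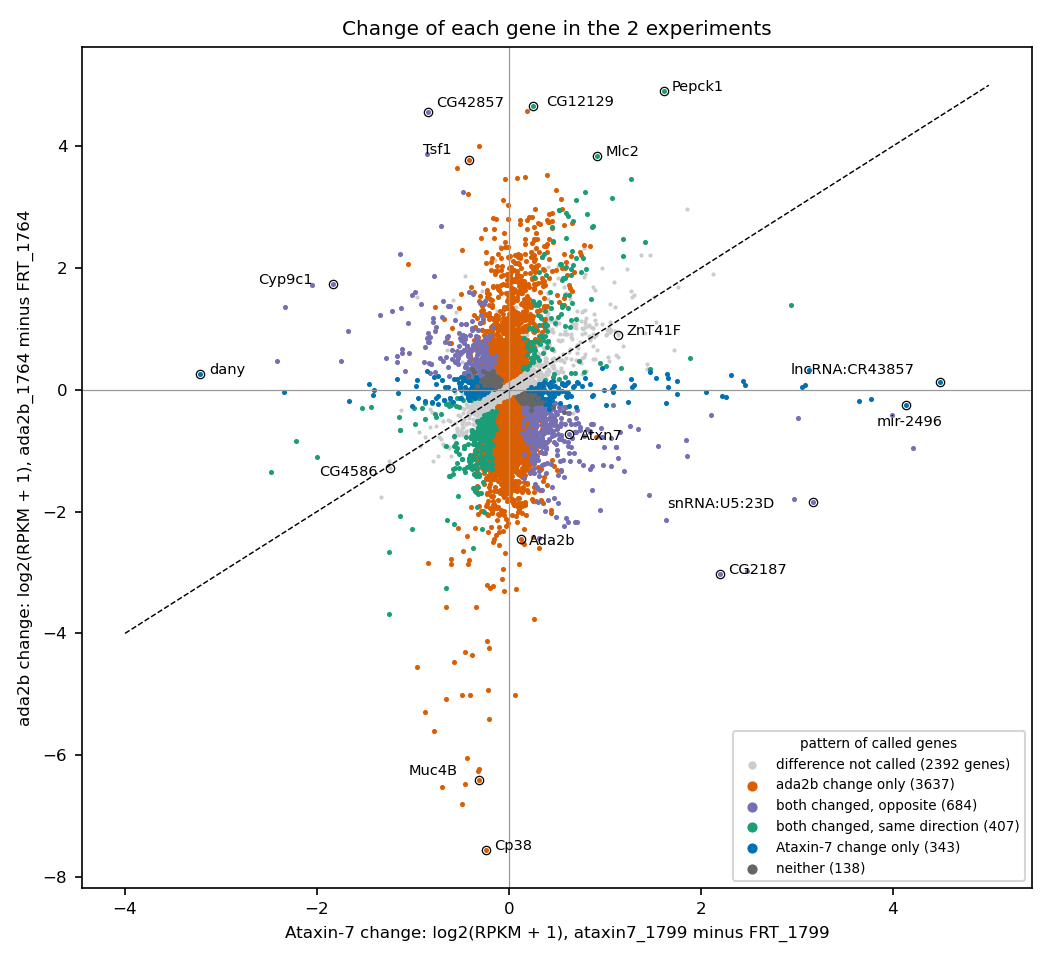
Each point is 1 of the 7601 tested genes, with its Ataxin-7 change on the horizontal axis and its ada2b change on the vertical axis, both in log2(RPKM + 1), and colours give the pattern of the called genes. The cloud is taller than wide (SD 0.861 against 0.347), genes on the dashed line have equal changes, and the 684 genes with opposite changes lie in the upper left and lower right.

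Eggshell genes gave the largest differences in size. Chorion proteins are the main proteins of the outer eggshell, and all 9 listed genes were tested and called below 0, with a median difference of -4.42 and a range of -7.31 to -1.75. All 9 fell in ada2b (median -4.93) and none passed the test in Ataxin-7 (median -0.44). Their summed level was 963 to 2830 RPKM in the ada2b libraries and 20076 to 22644 in FRT_1764, against 15760 to 18082 in the libraries labelled Ataxin-7 and 21968 to 24016 in FRT_1799. The largest difference of any tested gene, in size, was that of Cp38 (X), with 12.1, 3.63 and 129.8 RPKM in the ada2b libraries and 3804, 3455 and 3948 in FRT_1764. In experiment 1799, Cp38 stood at 4140.4, 5159 and 5032 RPKM in the libraries labelled Ataxin-7 and at 5851, 6713 and 4518 in FRT_1799. The ada2b values were far below all 9 others and were uneven among themselves, with replicate 3 highest, and the difference was -7.31 (-10.04 to -4.58, adjusted p = 0.000352, limma). Enzymes and structural proteins of eggshell maturation were split: 5 of 9 tested of 11 listed were below 0, among them yellow-g2 at -5.83, yellow-g at -4.83, Fcp3C at -3.06 and Femcoat at -3.06, and 1 was above 0 (4 and 2 under a common median). Of the 7 vitelline membrane genes, which encode the inner eggshell layer, 2 were above 0 (Vml 1.06, Vm26Ab 0.75) and 2 below (Vm32E -2.45, Vm26Ac -1.96). That made 57.1% called, against 68.5% of all tested genes.

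Yolk genes went the other way. Yp1, Yp2 and Yp3 encode the yolk proteins and yl their receptor in the oocyte. Yp3 stood at 2009.6, 1869.7 and 1980.3 RPKM in the ada2b libraries, 697, 547 and 708 in FRT_1764, 602, 879.5 and 818 in the libraries labelled Ataxin-7 and 969, 968 and 743 in FRT_1799. Its ada2b values lay above all others, and the difference was 1.82 (1.33 to 2.31, adjusted p = 3.35e-05, limma), with Yp2 at 1.13 and Yp1 at 0.78. The receptor gene yl was below 0 at -1.11. Under quantile normalization 2 of the 3 yolk protein genes were called.

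Genes for egg activation and the control of stored mRNA were below 0 without exception. All 15 listed genes were called below 0, with a median of -1.45, and all 15 fell in ada2b (median -1.42), whereas in Ataxin-7 3 fell and 1 rose (median 0.024). The gene cort, which encodes a female germline activator of the anaphase-promoting complex, stood at 6.43, 7.37 and 7.4 RPKM in the ada2b libraries and 36.4, 37.6 and 37.0 in FRT_1764. It stood at 33.5, 34.9 and 34.2 RPKM in the libraries labelled Ataxin-7 and 23.2, 22.3 and 22.6 in FRT_1799. The changes were called in opposite directions, -2.24 and 0.57, and the difference was -2.81 (-2.97 to -2.65, adjusted p = 1.65e-09, limma). Part of that difference lies between the controls, since FRT_1764 held 37.0 RPKM on average and FRT_1799 22.7. The gene wisp encodes a cytoplasmic poly(A) polymerase and had 27.4, 51.2 and 44.1 RPKM in the ada2b libraries, 149, 152 and 169 in FRT_1764, 199.0, 217.9 and 196.4 in the libraries labelled Ataxin-7 and 196, 188 and 186 in FRT_1799. Here the ada2b libraries were apart from the other 9, which did not differ by as much, and the difference was -2.06 (-2.59 to -1.52, adjusted p = 2.7e-05, limma). Also below 0 were dhd, a germline thioredoxin (-2.21), tral and me31B, which repress stored mRNA (-1.74 and -1.47), twe, a meiotic Cdc25 phosphatase (-1.69), and the Pan Gu kinase subunits plu, gnu and png (-1.51, -0.85 and -0.80). All 15 stayed below 0 under both scalings.

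Replication licensing genes behaved alike. Of 18 tested members, 17 were called below 0 and none above, with a median of -1.24, and all 18 fell in ada2b while none passed the test in either direction in Ataxin-7 (medians -1.32 and -0.073). Orc2, a subunit of the origin recognition complex, stood at 9.15, 10.2 and 11.7 RPKM in the ada2b libraries and 39.5, 40.7 and 36.0 in FRT_1764, and at 22.8, 22.1 and 21.1 in the libraries labelled Ataxin-7 and 21.1, 20.6 and 22 in FRT_1799. The ada2b values were the lowest and the FRT_1764 values the highest of the 12, and the difference was -1.86 (-2.11 to -1.62, adjusted p = 3e-07, limma). The helicase genes dpa (Mcm4) and Cdc45 followed at -1.63 and -1.54, the licensing factor dup (Cdt1) at -1.48, Orc5 at -1.46 and Mcm5 at -1.41. Smaller differences belonged to geminin, the inhibitor of Cdt1 (-0.80), and PCNA, the polymerase clamp (-0.77), and Cdc7 was not called (-0.39, interval -0.79 to 0.011). The 18 genes summed to 519 to 603 RPKM in the ada2b libraries and 1305 to 1346 in FRT_1764. In experiment 1799 they summed to 919 to 997 in the libraries labelled Ataxin-7 and 993 to 1093 in FRT_1799. The controls were thus apart for the list as well, with FRT_1764 the higher, in experiments that were normalized separately. The count of 17 was the same after scaling to a common median, where the median was -1.0.

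Germ plasm and axis mRNAs were mostly below 0, with 12 of 18 tested called below and 1 above (median -0.68). The changes had medians of -0.72 in ada2b and 0.080 in Ataxin-7. The lowest was pgc, which silences transcription in germ cell precursors, at 26.9, 19.3 and 23.9 RPKM in the ada2b libraries and 56.0, 55.0 and 53.7 in FRT_1764, and at 44.3, 40.7 and 43.7 in the libraries labelled Ataxin-7 and 33.9, 34.5 and 38.6 in FRT_1799. Its groups did not overlap within experiment 1764, and the difference was -1.47 (-1.78 to -1.16, adjusted p = 5.6e-06, limma). The translational repressor cup was at -1.31, gcl at -1.24, the anterior determinant bcd at -1.13 and the germ plasm organizer osk at -0.83. The exception was grk, the ligand that sets the dorsal side, at 0.68. After scaling to a common median the counts were 10 below and 3 above. Of 11 genes of meiotic recombination and the synaptonemal complex tested of 17 listed, 7 were below 0 and none above (median -0.67), among them mei-218, a crossover gene (-1.55), the cohesin gene SMC1 (-1.44) and mei-P22, needed for the double-strand breaks of meiosis (-0.91). The synaptonemal complex genes c(3)G and c(2)M were not called (-0.19 with interval -0.49 to 0.11, and 0.0091 with interval -0.16 to 0.18), and both fell in both experiments.

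Markers of the germline give the level of these cells' RNA beside the lists above. They are not independent of all lists, since they share members such as osk and aub with the germ plasm list, and others with the germline differentiation and piRNA lists. The 10 markers tested of 11 listed summed to 343 to 452 RPKM in the ada2b libraries and 524 to 568 in FRT_1764, and to 656 to 675 in the libraries labelled Ataxin-7 and 682 to 730 in FRT_1799. Of the 10, 5 were called below 0 and 1 above (zpg, 0.84). That made 60.0% called, near the 68.5% of all tested genes, of which 42.2% were below 0 and 26.3% above. Their median was -0.25, beside -0.13 over all tested genes, -1.45 for the egg activation list and -1.24 for the licensing list. The 6 follicle cell markers found in the data, of 7 listed, summed to 76.7 to 111 RPKM, 44.0 to 46.3, 59.4 to 67.5 and 58.7 to 72.6 in the same order. Of the 5 that were tested, 4 were above 0, including tj (0.99) and slbo (1.42). The part of these shifts in the lists was not tested.

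Glycolysis genes and the proteasome were below 0 as well. Of 10 glycolysis genes tested, 8 were below 0 and none above, with a median of -0.93, and here the Ataxin-7 change was called too, lower for 6 of 10. Pgi, phosphoglucose isomerase, stood at 25.8, 35.2 and 29.7 RPKM in the ada2b libraries, 106, 98.6 and 106 in FRT_1764, 61.5, 64.3 and 59.9 in the libraries labelled Ataxin-7 and 71.8, 68.2 and 71.9 in FRT_1799. Mutant libraries were below their controls in both experiments, with a called change of -1.75 in ada2b and a change of -0.19 in Ataxin-7 that did not pass the test, and the difference was -1.56 (-1.84 to -1.29, adjusted p = 2.11e-06, limma). Enolase (Eno) was at -1.26 and phosphofructokinase (Pfk) at -0.96, and Hex-A and Ald1 were not called (-0.31 and 0.16). Under a common median 7 were below 0 and 1 above. Of 34 proteasome genes tested, 30 were below 0 and 1 above, with a median of -0.48 and a narrow spread except for Rpn7. Rpn7, a lid subunit, stood at 97.1, 122 and 119 RPKM in the ada2b libraries, 413, 419.8 and 444 in FRT_1764, 162, 175 and 176 in the libraries labelled Ataxin-7 and 161, 161 and 164 in FRT_1799. Its outlying level was that of FRT_1764, and its difference was -2.0 (-2.24 to -1.75, adjusted p = 2.21e-07, limma), against -0.88 for Rpn2, the next. All 34 fell in ada2b and 9 fell in Ataxin-7. The gene above 0 was Prosbeta7 (0.32), whose fall was larger in Ataxin-7. The proteasome count depended on the scaling, with 20 below 0 and 1 above under a common median and 21 and 1 under quantile normalization. Prosalpha1 and Prosalpha1R are near-identical copies, and their values are uncertain.

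**Figure D2:**
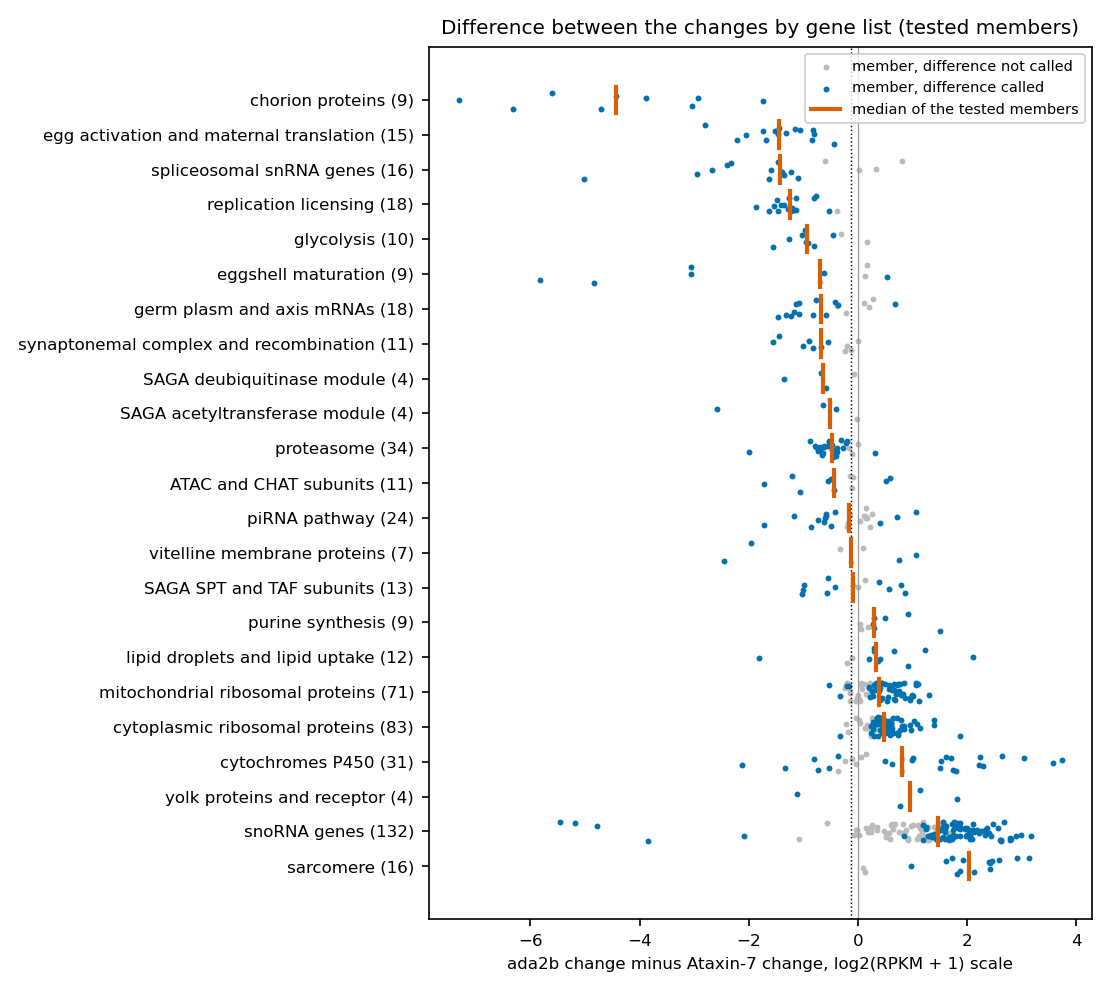
Each point is a tested member of a list, placed by its ada2b change minus its Ataxin-7 change in log2(RPKM + 1), blue where the difference was called and grey where not, and the orange bar is the median of the list. The dotted line marks the median of all tested genes (-0.13), from which chorion genes (-4.42), egg activation genes (-1.45) and snRNA genes (-1.42) lie to the left and sarcomere genes (2.03) and snoRNA genes (1.46) to the right.

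Sarcomere genes had the highest median of the function lists. Of 16 tested of 26 listed, 14 were above 0 and none below, with a median of 2.03. In ada2b 14 of 16 rose (median 2.70), and 5 of 16 rose in Ataxin-7 (median 0.48). Mlc2, a myosin light chain, stood at 77.7, 40.7 and 49.2 RPKM in the ada2b libraries and 4.06, 2.79 and 1.99 in FRT_1764, and at 9.07, 7.86 and 11.5 in the libraries labelled Ataxin-7 and 4.67, 5.12 and 3.72 in FRT_1799. Mutant values were above control values without overlap in both experiments, and the ada2b rise was the larger, with a difference of 2.91 (2.15 to 3.66, adjusted p = 2.68e-05, limma). TpnC73F, a troponin C, was at 3.13, tropomyosin Tm2 at 2.59, Mp20 at 2.46 and the myosin heavy chain Mhc at 2.40. Act87E, another actin gene, and the tropomyosin gene Tm1 were not called (0.10 and 0.14). Muscle markers, which share members with this list, summed to 263 to 436 RPKM in the ada2b libraries, 59.8 to 78.5 in FRT_1764, 100 to 128 in the libraries labelled Ataxin-7 and 65.2 to 81.0 in FRT_1799. Ovaries carry a muscle sheath, and its share of the dissected tissue was not measured. Of the 7 blood cell (hemocyte) markers only crq (0.51, called) and srp (-0.32, not called) reached the minimum level. The markers Hml, eater and He were under 1 RPKM in every library. All 7 summed to 91.4 to 113 RPKM in the ada2b libraries and 62.4 to 66.8 in FRT_1764. In experiment 1799 they summed to 64.2 to 66.8 in the libraries labelled Ataxin-7 and 61.2 to 66.5 in FRT_1799. These sums also held NimC1 and Pxn, which are not given singly here. Of the 8 fat body markers, Lsp2 stood at 33.7, 4.77 and 10.1 RPKM in the ada2b libraries and at no more than 2.74 in the other 9, while Fbp1 and Fbp2 were at or near 0 in all. The part of muscle and other cells in the sarcomere difference was not tested. Ada2b replicate 1 was the highest of the ada2b libraries for 15 of the 16 genes, and without it 14 were still above 0 and the median was 1.72.

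Genes of snoRNAs, which guide the chemical modification of ribosomal RNA, were above 0 as a class. Of 243 listed, 132 were tested, and 77 were above 0 and 5 below, with a median of 1.46. In ada2b 115 rose and 3 fell, and in Ataxin-7 16 rose and 1 fell. The gene snoRNA:660 stood at 488, 292 and 321 RPKM in the ada2b libraries and 58.7, 32.9 and 23.7 in FRT_1764, and at 164, 162 and 212 in the libraries labelled Ataxin-7 and 144, 147 and 96.3 in FRT_1799. Its ada2b values were the highest and its FRT_1764 values the lowest, with a difference of 2.80 (1.85 to 3.74, adjusted p = 0.000172, limma). This snoRNA lies within Act57B, a muscle actin whose difference was 1.82. All 77 snoRNA genes above 0 overlap another gene of the same strand, and 74 of them a tested host gene. Of all 132 tested, 126 overlap such a gene and 120 a tested host, so the overlap is not particular to the 77. The 31 distinct hosts of the 74 had a median difference of 0.36, with 16 above 0, 3 below and 12 not called. That is a smaller shift than that of the snoRNA genes within them. The 43 hosts of all tested snoRNA genes had the same median, with 23 above 0, 4 below and 16 not called. The snoRNA count was 58 above 0 and 6 below without ada2b replicate 1 (median 1.17), and 88 and 5 under a common median. Poly(A) RNA was sequenced, and mature snoRNAs carry no poly(A) tail, so these values do not measure their mature forms. The copies snoRNA:U3:54Aa and snoRNA:U3:9B, parts of the U3 family that cuts the ribosomal RNA precursor, were below 0 (-5.18 and -2.09), and reads of near-identical copies cannot be assigned with certainty.

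Ribosomal protein genes were above 0 with small differences. Of 83 cytoplasmic ribosomal protein genes tested, 63 were above 0 and 1 below, with a median of 0.48. In ada2b 58 rose and 2 fell (median 0.34), and in Ataxin-7 none rose and 10 fell (median -0.14). The highest differences were those of RpS10a (1.86), RpLP0-like (1.40) and RpL38. RpL38 stood at 6712, 1937 and 2802 RPKM in the ada2b libraries, 1369, 1577 and 1134 in FRT_1764, 806, 713 and 739 in the libraries labelled Ataxin-7 and 817, 776 and 818 in FRT_1799. The ada2b values were above all others, with replicate 1 the highest, and the difference was 1.39 (0.34 to 2.45, adjusted p = 0.0234, limma) and 0.89 without that library. RpS5a was at 1.13, and RpL3 was the 1 gene below 0 (-0.33). The count was 79 above 0 and none below under a common median and 57 and 2 under quantile normalization. Of 71 mitochondrial ribosomal protein genes, 46 were above 0 and 4 below (median 0.38), with mRpL33 at 1.29 and mRpL14 at -0.52. For these, 40 rose and 8 fell in ada2b, and 2 rose and 30 fell in Ataxin-7. Genes of oxidative phosphorylation encoded in the nucleus were divided, with 22 of 64 above 0 and 11 below, and translation initiation factors were divided evenly, with 10 of 35 in each direction. After scaling to a common median these 3 lists had 59 above and none below, 43 and 3, and 18 and 3. With the values as deposited, 51.6% of the oxidative phosphorylation genes and 57.1% of the initiation factors were called, against 68.5% of all tested genes.

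Metabolic enzymes gave single large differences. Pepck1, the enzyme that starts gluconeogenesis, stood at 189.8, 212 and 191 RPKM in the ada2b libraries and 2.57, 8.36 and 7.69 in FRT_1764, and at 2.84, 5.59 and 6.11 in the libraries labelled Ataxin-7 and 1.18, 0.866 and 0.550 in FRT_1799. It rose in both experiments, with no overlap between mutant and control in either, and more so in ada2b, with a difference of 3.3 (2.25 to 4.34, adjusted p = 0.000111, limma). Of 9 purine synthesis genes 6 were above 0 and none below (median 0.29), beside 26.3% and 42.2% of all tested genes. The list was led by Paics, which catalyses steps of the ring assembly. Paics stood at 33.7, 45.7 and 39.0 RPKM in the ada2b libraries, 19.5, 16.9 and 16.0 in FRT_1764, 15.2, 16.9 and 16.3 in the libraries labelled Ataxin-7 and 21.7, 22.1 and 20.3 in FRT_1799. Its changes were opposite, 1.12 and -0.39, with a difference of 1.51 (1.19 to 1.82, adjusted p = 5.95e-06, limma). Cytochromes P450 oxidize hormones and toxins, and 17 of 31 tested were above 0 and 6 below, from -2.12 (Cyp6a19) to 3.73 (Cyp6a13). Cyp6a13 stood at 32.6 to 45.5 RPKM in the ada2b libraries, and no library of the other 3 groups was above 3.5. The ecdysone synthesis genes spo and sad were above 0 (2.02 and 1.94), and phtm, of the same pathway, was below (-1.59). Of 12 lipid droplet and lipid uptake genes tested, 9 were above 0, led by the perilipin Lsd-1 (2.11), and the 1 below was Jabba, which holds histones on droplets (-1.80). Among small heat shock proteins Hsp27 and Hsp26 were below 0 (-2.69 and -2.10) and Hsp23 was not called (-0.42). Above 0 were Hsp67Bc (1.85), Hsp22 (1.39), Hsp67Ba (0.94) and CG4456 (1.37), which overlaps Hsp22 on the same strand. Hsp67Bc was uneven, with 1.59, 5.94 and 8.92 RPKM in the ada2b libraries. So were Hsp22 (8.44, 8.09 and 23.5 RPKM) and CG4456 (7.68, 7.35 and 21.4), in which ada2b replicate 3 was far above the other ada2b libraries.

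**Figure D3:**
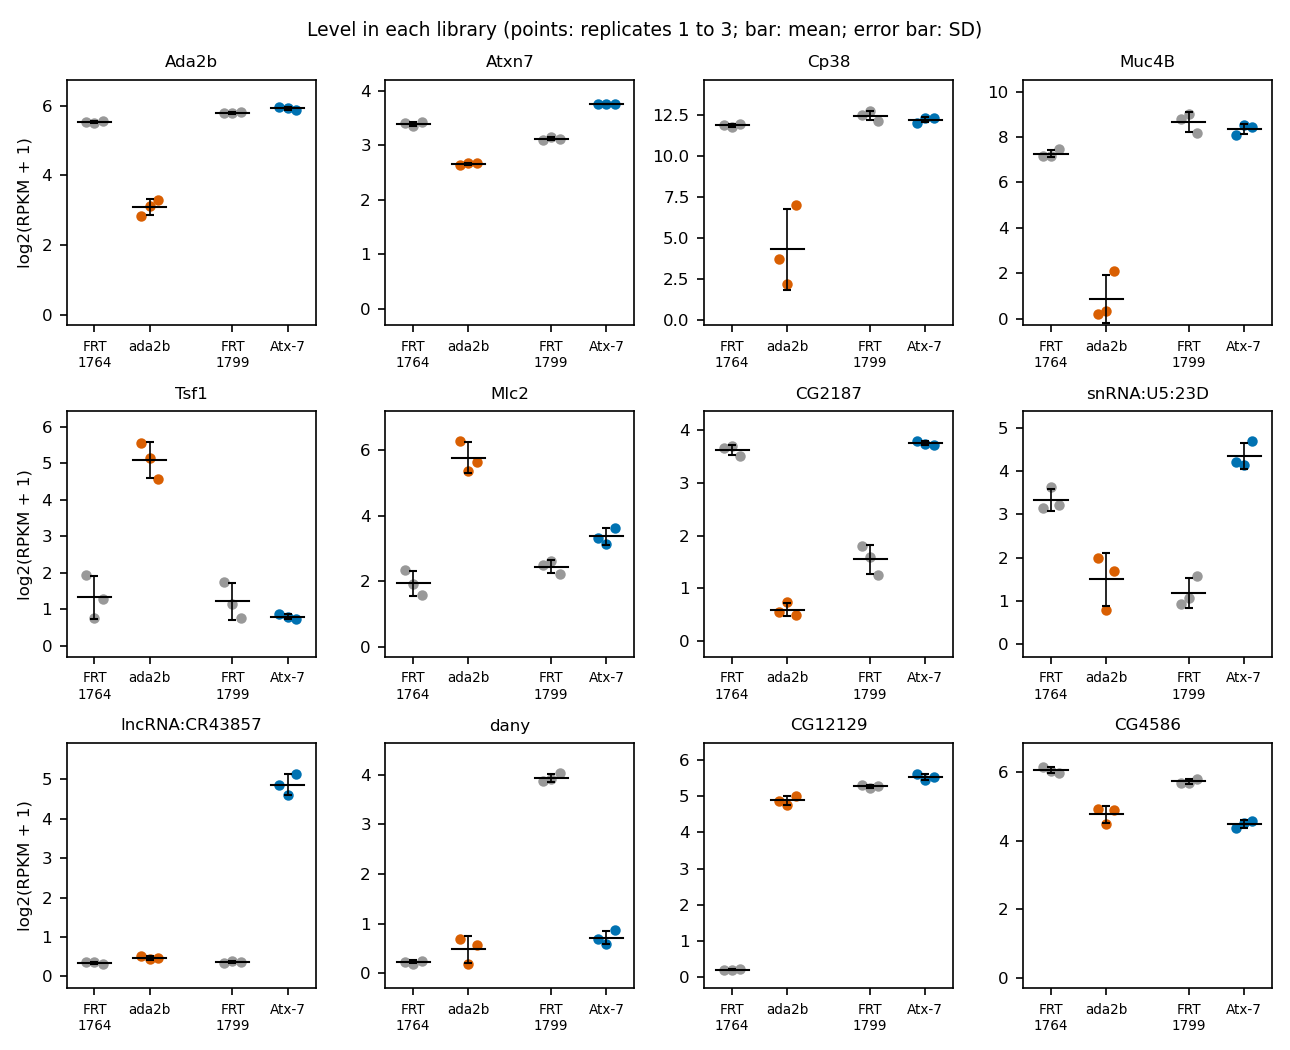
Each panel gives the level of 1 gene in log2(RPKM + 1) for the 3 replicates of each of the 4 groups, with the group mean as a bar and the SD as an error bar. Ada2b, Cp38 and Muc4B are low in the ada2b libraries only, Tsf1 and Mlc2 are high there, CG2187 and snRNA:U5:23D move in opposite directions, lncRNA:CR43857 is high in the libraries labelled Ataxin-7 only, dany is high in FRT_1799 only, CG12129 is low in FRT_1764 only, and CG4586 falls in both experiments.

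Outside the lists, the highest differences belonged to CG42857, CG18628, CG12129, CG13321, CG16926, Tsf1, CG34446 and Ir40a, and ranged from 5.41 to 3.77. CG42857 (3R) stood at 61.5, 43.3 and 54.9 RPKM in the ada2b libraries and 0.765, 1.58 and 1.55 in FRT_1764, and at 2.85, 2.16 and 2.64 in the libraries labelled Ataxin-7 and 4.89, 5.02 and 6.17 in FRT_1799. It rose in ada2b (4.57) and fell in Ataxin-7 (-0.84), with no overlap in either experiment, and the difference was 5.41 (4.90 to 5.92, adjusted p = 4.55e-08, limma). Tsf1, a transferrin that carries iron, stood at 46.1, 34.6 and 22.9 RPKM in the ada2b libraries, 2.82, 0.712 and 1.43 in FRT_1764, 0.834, 0.739 and 0.661 in the libraries labelled Ataxin-7 and 2.38, 1.21 and 0.688 in FRT_1799. The ada2b values were above the other 9, and the difference was 4.19 (3.17 to 5.20, adjusted p = 1.63e-05, limma). CG34446 rested partly on replicate 1, with 69.1, 16.7 and 23.7 RPKM in the ada2b libraries, and its difference of 4.18 was 3.60 without that library.

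CG12129 differed from these in where its difference lay. It stood at 28.3, 26 and 31.0 RPKM in the ada2b libraries, 47.5, 42.4 and 44.9 in the libraries labelled Ataxin-7 and 38.3, 36.4 and 37.9 in FRT_1799, but at 0.151, 0.159 and 0.166 in FRT_1764. In experiment 1846 it was at 60.4 to 66.6 RPKM in nonstop and 59.4 to 64.4 in the control. Of the 6 groups FRT_1764 alone was near 0, so the difference of 4.41 (4.21 to 4.61, adjusted p = 3.32e-10, limma) lay in that control. The gene overlaps oys on the opposite strand.

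Differences of this kind were uncommon over all genes. The 2 FRT controls were at least 2-fold apart on the log2(RPKM + 1) scale for 386 of the 7601 tested genes (5.08%), and for 188 of the 1399 called at 2-fold or more (13.4%), which is not independent of the call since the controls are part of the difference. The mutant groups were at least 2-fold apart for 1633 of all genes (21.5%) and for 916 of those 1399 (65.5%). Both comparisons of levels cross experiments that were normalized separately.

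The lowest differences outside the lists belonged to Muc4B, CG11381, CG4009, CG13114, CG2187, CG31928, CG15571 and CG15570, from -6.09 to -4.61. Muc4B, which encodes a mucin-like protein, stood at 0.147, 0.269 and 3.27 RPKM in the ada2b libraries and 144, 144 and 177 in FRT_1764, and at 271, 367 and 345 in the libraries labelled Ataxin-7 and 439.8, 520.0 and 288 in FRT_1799. The ada2b libraries were the lowest, with replicate 3 above the other 2, and the difference was -6.09 (-7.38 to -4.80, adjusted p = 6.53e-06, limma). For 7 of these 8 genes only the ada2b change was called, a fall each time, and in each of the 7 ada2b replicate 3 was the highest of the ada2b libraries. The eighth, CG2187, is among the opposite changes.

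Opposite changes were called for 684 genes, and those with the largest changes on both sides are given here. CG2187 stood at 0.463, 0.664 and 0.412 RPKM in the ada2b libraries and 11.7, 11.9 and 10.4 in FRT_1764, and at 12.9, 12.3 and 12.2 in the libraries labelled Ataxin-7 and 2.47, 2.02 and 1.40 in FRT_1799. It fell by 3.03 in ada2b and rose by 2.20 in Ataxin-7, with a difference of -5.23 (-5.60 to -4.86, adjusted p = 7.69e-09, limma), and the ada2b libraries lay nearer to FRT_1799 than to FRT_1764. Of a like form was snRNA:U5:23D, a gene of the U5 spliceosomal RNA that overlaps FASN2 on the same strand. It stood at 3.0, 0.734 and 2.21 RPKM in the ada2b libraries, 7.92, 11.4 and 8.25 in FRT_1764, 17.4, 16.7 and 25.0 in the libraries labelled Ataxin-7 and 0.887, 1.08 and 1.97 in FRT_1799, with a difference of -5.01 (-5.91 to -4.11, adjusted p = 2.23e-06, limma). The small RNA genes snoRNA:Me18S-C1968 and snoRNA:185 completed this orientation, at -5.46 and -4.77.

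In the other orientation the leading genes were Ir40a, CG15784, Cyp9c1 and Tg. Ir40a, an ionotropic receptor known from humidity sensing, stood at 7.46, 4.18 and 5.01 RPKM in the ada2b libraries, 0.951, 0.917 and 0.999 in FRT_1764, 0.245, 0.163 and 0.151 in the libraries labelled Ataxin-7 and 4.03, 4.05 and 3.72 in FRT_1799. It rose by 1.71 and fell by 2.06, and the difference was 3.77 (3.33 to 4.21, adjusted p = 1.56e-07, limma). Cyp9c1, a cytochrome P450, stood at 4.42 to 6.98 RPKM in the ada2b libraries and 5.31 to 6.51 in FRT_1799, against 0.817 to 0.976 in FRT_1764 and 0.873 to 1.05 in the libraries labelled Ataxin-7. Tg, a transglutaminase that crosslinks proteins, had 7.52 to 13.3 and 5.36 to 5.91 in the same pair of groups, against 3.41 to 3.86 and 1.58 to 1.70. In Cyp9c1, as in CG2187, the ada2b libraries lay nearer to FRT_1799 than to FRT_1764, and in Tg all 4 groups were apart. The differences were 3.56 for Cyp9c1, 3.70 for CG15784 and 2.58 for Tg. For CG15784 the controls were far apart, with a mean log2(RPKM + 1) of 2.78 in FRT_1764 and 5.65 in FRT_1799. Its ada2b libraries averaged 4.14 and the libraries labelled Ataxin-7 3.32 on that scale. The controls were also at least 2-fold apart for the other leading genes of both orientations except Tg. On that scale FRT_1764 minus FRT_1799 was 2.07 for CG2187, 2.15 for snRNA:U5:23D, 1.82 for snoRNA:Me18S-C1968 and 1.03 for snoRNA:185. It was -1.33 for Ir40a, -1.87 for Cyp9c1 and -0.53 for Tg. Among all 684 genes the controls were at least 2-fold apart for 62 (9.06%), so these leading genes are not typical of the set in this.

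A smaller set changed in Ataxin-7 alone. Of the 343 genes with only the Ataxin-7 change called, 38 changed by at least 2-fold, 29 up and 9 down. The 29 rises held 7 snRNA genes, 2 snoRNA genes, 5 long noncoding or antisense RNAs and 2 microRNA or hairpin genes. The largest rise was that of lncRNA:CR43857 (2L), the transcript that contains mir-275, with 27.9, 23.3 and 34.3 RPKM in the libraries labelled Ataxin-7 and 0.275 to 0.309 in FRT_1799. In experiment 1764 it was at 0.349 to 0.441 RPKM in the ada2b libraries and 0.249 to 0.283 in FRT_1764. The libraries labelled Ataxin-7 stood alone, and the difference was -4.36 (-4.71 to -4.02, adjusted p = 2.27e-08, limma). The transcript lncRNA:CR43626, which contains mir-282, had a difference of -3.92, and mir-2496 had 19.6, 19.2 and 23.1 RPKM in the libraries labelled Ataxin-7 with at most 0.485 in the other 9. The fitted difference of mir-2496 was -4.39, and no fold is given since several of its libraries are listed at 0. A U3 copy, snoRNA:U3:54Ab, was at -3.84.

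Falls of at least 2-fold in Ataxin-7 alone held no small RNA gene. The gene dany (2R) stood at 0.616, 0.514 and 0.831 RPKM in the libraries labelled Ataxin-7 and at 13.6, 14.1 and 15.2 in FRT_1799, and at 0.618, 0.135 and 0.486 in the ada2b libraries and 0.178, 0.146 and 0.196 in FRT_1764. In experiment 1846 it was at 0.930 to 1.87 RPKM in nonstop and 0.0949 to 0.302 in the control. FRT_1799 stood far above the other 5 groups, and the difference of 3.47 (3.08 to 3.85, adjusted p = 1.15e-07, limma) lay in that control. CG5096 had the same form, with 9.21 to 10.5 RPKM in FRT_1799 and 2.31 for the difference. In l(2)gl, a cell polarity gene and tumour suppressor at the tip of arm 2L, it was the mutant group that stood apart. It was at 10.7, 10.4 and 6.23 RPKM in the libraries labelled Ataxin-7 and 29.8, 30.7 and 30.5 in FRT_1799, and at 20.8, 25.5 and 23.9 in the ada2b libraries and 25.6, 27.4 and 27.3 in FRT_1764, with a difference of 1.47 (1.0 to 1.95, adjusted p = 0.000123, limma). Ir76a, an ionotropic receptor gene that overlaps CG14102, was at 1.56.

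For spliceosomal snRNA genes the difference came mainly from the Ataxin-7 change. Of 28 listed, 16 were tested, and 12 were below 0 and none above, with a median of -1.42. In Ataxin-7 14 rose and none fell (median 1.65), while in ada2b 4 rose and 4 fell (median 0.10). The gene snRNA:U12, part of the minor spliceosome, stood at 26.5, 21.7 and 33.2 RPKM in the libraries labelled Ataxin-7 and 4.88, 7.75 and 7.70 in FRT_1799, and at 7.42, 2.29 and 3.55 in the ada2b libraries and 10.9, 10.7 and 7.74 in FRT_1764. The pairs of groups moved apart in opposite directions, and the difference was -2.95 (-3.89 to -2.0, adjusted p = 0.000117, limma). All 6 tested U2 genes were below 0, from -2.67 to -1.36, and of the 5 tested U1 genes 1 was, snRNA:U1:82Eb at -1.38. The U2 genes stood at only 0.296 to 0.908 RPKM in FRT_1799. They are much shorter than 1000 bp, so these values are near the floor and rest on few reads. Mature snRNAs have no poly(A) tail, and U1 and U2 genes are near-identical copies among which reads cannot be assigned with certainty. The counts were 0 and 12 under both scalings and 0 and 13 without ada2b replicate 1.

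Subunit genes of SAGA other than the mutated ones had differences of -1.02 to 0.86. Ada2b aside, the acetyltransferase module had Sgf29 at -0.64 and Gcn5 at -0.40, both called, and Ada3 at -0.011, not called. Gcn5 stood at 12.4 to 12.9 RPKM in the ada2b libraries and 18.2 to 18.5 in FRT_1764, and at 13.1 to 14.3 in the libraries labelled Ataxin-7 and 14.9 to 15.2 in FRT_1799. In the deubiquitinase module Sgf11 was at -0.68 and e(y)2 at -0.073, the latter not called. Of 13 SPT and TAF subunit genes 4 were above 0 and 6 below, among them wda (-1.02), Spt20 (-1.0), Nipped-A (-0.98) and Ada1-1 (0.86). Of 11 ATAC and CHAT subunit genes 2 were above 0 and 6 below, with D12 at -1.73. The share called was 76.9% in the SPT and TAF list and 72.7% in the ATAC and CHAT list, near the 68.5% of all tested genes. After scaling to a common median the ATAC and CHAT list had 2 and 4, the acetyltransferase module had 1 above and 1 below of 4, and the SPT and TAF list 5 and 5, so that no direction holds for the acetyltransferase list or the SPT and TAF list under every scaling.

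**Figure D4:**
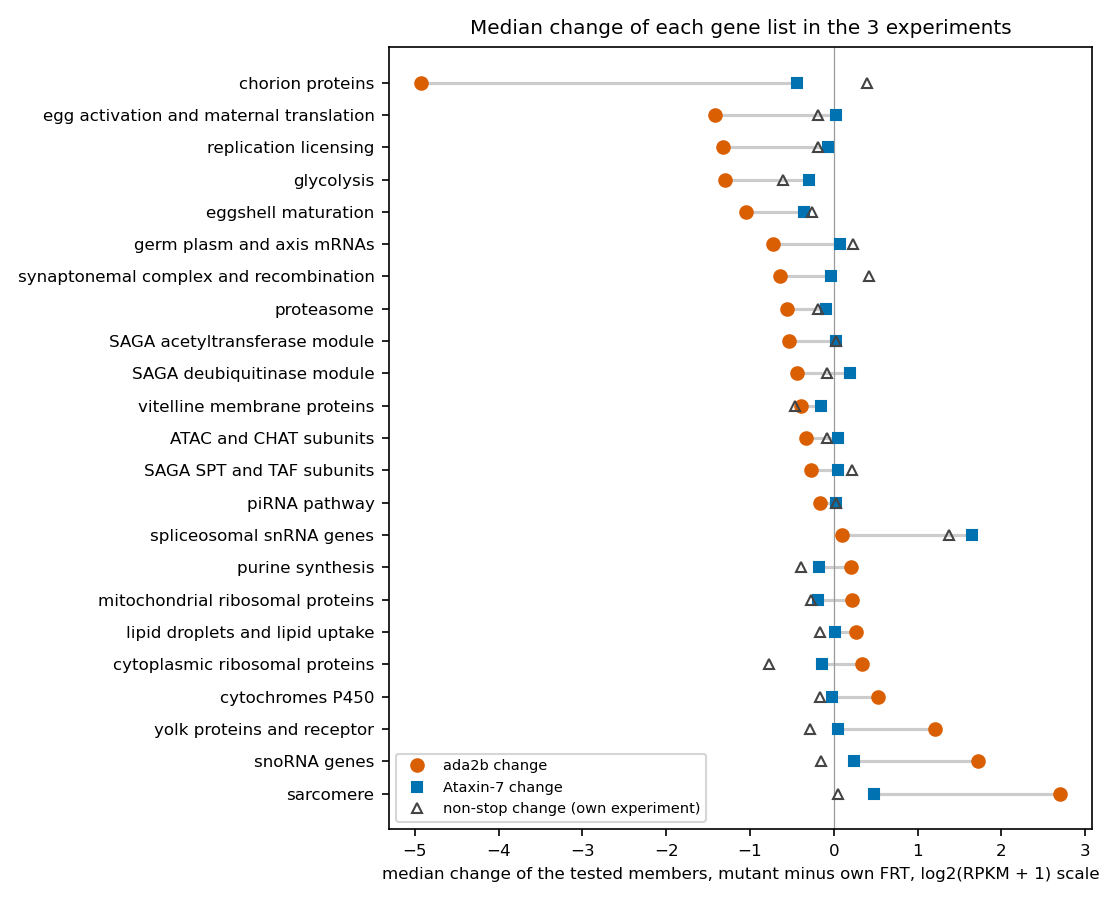
Each row is a gene list, with the median change of its tested members in ada2b (circles), in Ataxin-7 (squares) and in the separate non-stop experiment (triangles), in log2(RPKM + 1) against the own FRT control. For chorion genes the ada2b median of -4.93 stands alone, for sarcomere genes that of 2.70, and for snRNA genes the Ataxin-7 median (1.65) lies beside that of non-stop (1.37) and apart from that of ada2b (0.10).

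Like changes of some size were few. Of 110 genes with both changes called in the same direction and at least 1.5-fold each, 20 had a 95% interval of the difference within 1.5-fold either way, 10 rises and 10 falls. CG4586 stood at 29.4, 21.5 and 28.5 RPKM in the ada2b libraries, 69.4, 65.1 and 61.6 in FRT_1764, 19.5, 22 and 22.9 in the libraries labelled Ataxin-7 and 50.8, 50.6 and 55.1 in FRT_1799. Its changes were -1.28 and -1.24, and the difference of -0.04 had an interval of -0.37 to 0.29. Rpt3R, a variant proteasome ATPase, fell by 0.92 and 0.93 (interval -0.44 to 0.46), and CG13609 fell in both as well. Rises of this kind were those of CG12730 (difference 0.061, interval -0.39 to 0.51), CG8066 (-0.044, -0.53 to 0.44) and the zinc transporter gene ZnT41F (-0.24, -0.47 to -0.011). Over all tested genes the interval lay within 1.5-fold for 2758 (36.3%).

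The non-stop experiment gave the same measure in libraries that the difference did not use. Its change was called for 3805 of 7492 genes tested there (50.8%), 1929 higher (25.7%) and 1876 lower (25.0%), and 7324 genes were tested in both fits. Of the genes that rose in Ataxin-7 alone, 69.9% of 143 also rose in non-stop and 4.90% fell, and of those that fell in Ataxin-7 alone, 70.5% of 183 fell and 4.37% rose. Among opposite changes, genes down in ada2b and up in Ataxin-7 rose in non-stop in 64.5% of 383 and fell in 6.79%, and the reverse group fell in 59.9% of 284 and rose in 10.6%. Genes with only an ada2b change were nearer the background, and more of them were called against the ada2b direction than with it. Of the ada2b rises 11.4% rose in non-stop and 31.9% fell, and of the ada2b falls 29.3% rose and 16.0% fell. Among single genes, the non-stop change was called for lncRNA:CR43857 (2.33) and snRNA:U5:23D (2.32) and not called for CG2187 (0.27), Muc4B (-0.084) or Cp38 (0.29).

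**Figure D5:**
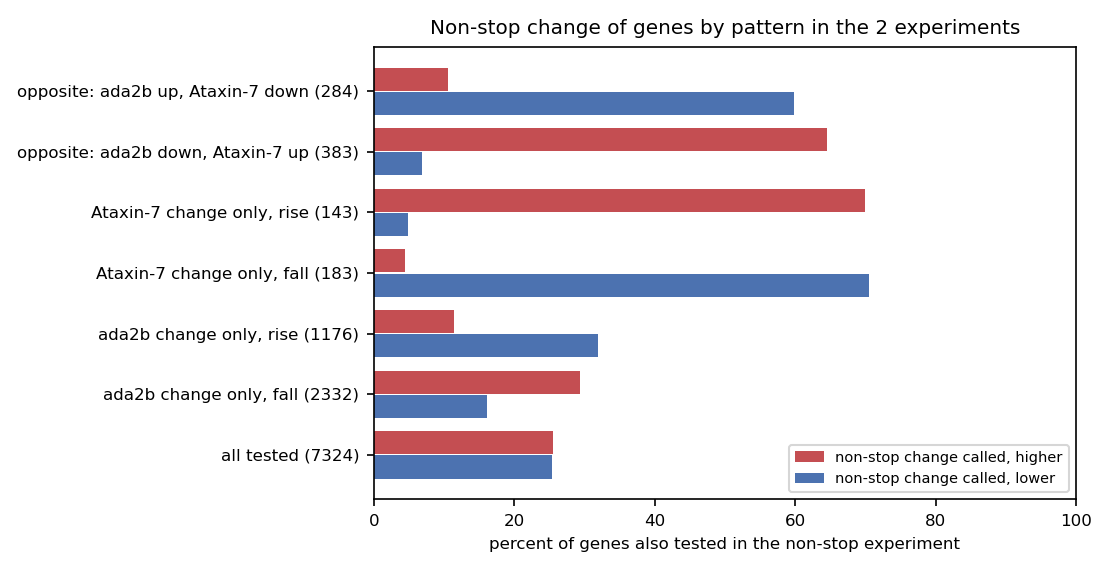
Bars give the percent of genes whose non-stop change was called higher (red) or lower (blue), for each pattern of ada2b and Ataxin-7 changes and for all tested genes, with the number of genes in brackets. In both Ataxin-7-only patterns and both opposite patterns the longer bar (59.9% to 70.5%) has the direction of the Ataxin-7 change, against 25.6% and 25.3% over all tested genes.

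The share of called genes varied little with position and level. The percent of genes called was 66.5 to 70.5 on the X and the large autosome arms and 75.4 on chromosome 4, which held 57 tested genes. It rose from 64.8 in the lowest quartile of mean RPKM to 70.6 and 70.5 in the upper ones. In the lowest quartile 33.0% were above 0 and 31.8% below, and in the other quartiles more genes were below 0 than above.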

How the data were processed

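Poly(A) RNA of Drosophila ovaries was made into stranded TruSeq libraries. The deposited table holds RPKM values that the authors computed per gene and library, and the submitters' processing notes name CASAVA 1.8.2, TopHat2 2.0.13, edgeR 3.14.0 and the dm3 genome. All 13903 genes with a value above 0 held whole multiples, within 0.005, of what 1 read is worth for that gene and library, so read numbers were recovered for depth and as an alternative test.

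Values were taken as log2(RPKM + 1), genes were kept where the RPKM averaged 1 or more over 12 libraries, and limma 3.58.1 (R 4.3.3, trended eBayes) was fitted to the 4 groups together. The contrast of the 2 changes, each change, and 95% intervals came from that fit, with Benjamini-Hochberg adjustment over 7601 genes. The non-stop experiment was fitted alone. A pseudocount of 1 understates the change of genes with low values. The fit was tested on simulated data. Symbols, chromosomes and overlaps came from the BDGP6.54 annotation, which matched 15002 of 15682 identifiers, and tables were handled in Python 3.11.15.

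The contrast and the gene lists were chosen with earlier results of these data known. Outside the lists, genes were named as the 8 highest and 8 lowest differences, the 4 largest opposite changes in each orientation, the 4 largest rises and falls in Ataxin-7 alone and the 3 largest like rises and falls. Within lists, the members with the largest difference in size were named, with others needed to describe the list. Alternatives were quantile and common-median scaling, array weights, read counts with voom, other minimum levels, a replicate block, leaving out the arms of Ada2b and Atxn7, and leaving out each library. A planned count of promoter motifs was not run.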

Additional observations from a re-analysis of the deposited data

Results flagged for a closer look

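With 3 libraries per group no single library was tested as an outlier, and the results here stand out because the ada2b change and the Ataxin-7 change differed by the test of the difference itself. That held for 5209 genes, of which 684 changed in opposite directions. The mutated genes Ada2b (-2.57), Atxn7 (-1.36) and not (-0.59) were among them, and Atxn7 rose in the libraries that carry its genotype label. Differences above 0 on the log2(RPKM + 1) scale were those of CG42857 (5.41), CG18628 (4.72), CG12129 (4.41), CG13321 (4.39), CG16926 (4.31), Tsf1 (4.19), CG34446 (4.18), Ir40a (3.77), CG15784 (3.70), Cyp9c1 (3.56), dany (3.47), Tg (2.58), CG5096 (2.31), Ir76a (1.56) and l(2)gl (1.47). Below 0 stood Muc4B (-6.09), CG11381 (-6.02), CG4009 (-5.93), CG13114 (-5.91), snoRNA:Me18S-C1968 (-5.46), CG2187 (-5.23), CG31928 (-5.20), CG15571 (-5.08), snRNA:U5:23D (-5.01), snoRNA:185 (-4.77), CG15570 (-4.61), mir-2496 (-4.39), lncRNA:CR43857 (-4.36), lncRNA:CR43626 (-3.92) and snoRNA:U3:54Ab (-3.84).

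For CG12129, dany and CG5096 the group that stood apart was an FRT control and not a mutant. CG12129 averaged 0.159 RPKM in FRT_1764 and 28.4 in the ada2b libraries. The gene dany averaged 14.3 RPKM in FRT_1799 and 0.654 in the libraries labelled Ataxin-7, and CG5096 averaged 9.70 and 1.11. Each control was grown and sequenced in its own experiment, so the background of a control strain and its experiment cannot be told apart.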

How the results depend on the processing

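The count of called differences, 5209 with the settings of the report, was 3047 without the arms that carry Ada2b and Atxn7, where fewer genes were tested, and 1399 with a 2-fold minimum. Without those arms the patterns counted 379 opposite, 204 Ataxin-7-only and 2151 ada2b-only genes. Array weights gave 3504 Ataxin-7 calls, 1139 opposite and 588 Ataxin-7-only genes. Leaving out each library in turn gave 4843 to 5494 called differences, 5416 to 5869 ada2b calls, 1279 to 3079 Ataxin-7 calls, 461 to 1141 opposite, 244 to 499 Ataxin-7-only and 3022 to 3861 ada2b-only genes. The highest counts of Ataxin-7 calls and opposite genes were those without ada2b replicate 1. The replicate block gave 5058 called differences, 5682 ada2b and 1550 Ataxin-7 calls. Correlations between same-numbered samples were -0.35 to 0.091, so the numbers do not pair the samples. For the 39 named genes, 843 of 849 alternative values kept direction and call, none reversed, and 6, of CG12730 and ZnT41F, became called. Of 770 list medians, 46 moved and 22 had another sign. P-values of the difference weigh it only against the spread between triplicates, pooled over the 4 groups of the fit. Alternatives for the counts by pattern were chosen after seeing the data. The planned count of promoter motifs was not run.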

Other observations

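Other gene groups of the ovary were divided between directions, beside 26.3% above 0 and 42.2% below 0 over all tested genes. Of 24 piRNA pathway genes, which silence transposons, 10 were below 0 and 3 above (median -0.16), from moon, a factor of piRNA cluster transcription (-1.72), and krimp (-1.17) to cuff, a member of the Rhino complex (1.06), and 9 were below and 9 above after scaling to a common median. Of 8 variant and maternal histone genes and their processing factors, 4 were below 0 and none above, among them the maternal linker histone BigH1 (-1.80) and the stem-loop binding protein Slbp (-1.04). Maternal tubulins were below 0 (gammaTub37C -1.92, alphaTub67C -1.35) and betaTub97EF was above (0.60), in a list of 6 with 3 below and 1 above. Of 9 germline differentiation genes 2 were above 0 (zpg 0.84, Sxl 0.45) and 3 below, led by otu (-1.27).

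Of 23 glutathione transferase genes, which couple toxins to glutathione, 8 were above 0 and 9 below, from GstE8 (-2.15) to GstO3 (1.77). Of 19 heat shock genes 6 were above 0 and 3 below, and 11 were above without ada2b replicate 1. The 12 lipid genes had a median of 0.34. Of 6 gluconeogenesis and trehalose genes 3 were above 0 and 2 below, with the glycogen phosphorylase Glyp at -1.34, of 10 ecdysone genes 4 and 3, and of 11 vacuolar ATPase genes 1 and 4. Of 22 genes of the mitochondrial genome 4 were above 0 and none below, with a median of 0.84 that was 0.34 without ada2b replicate 1, the library with most mitochondrial reads. None of 5 antimicrobial peptide genes tested was called by limma, and 0 of them had an unadjusted p under 0.05. A single cuticle protein gene of 114 listed was tested, and it was above 0 (1.16). None of the 5 neuron markers reached the minimum level.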
